A study of Homo sapiens with 16 samples.

Results

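The genes described here are the replication-dependent histone genes of the HIST1 to HIST4 clusters in 2 pancreatic cancer cell lines. They are all genes whose symbol in the deposited FPKM table begins with HIST1H, HIST2H, HIST3H or HIST4H, joined to the count table by Ensembl identifier. Of the 63677 identifiers in the count table, the rule found those of 89 symbols and 17 second identifiers of such a symbol, which held 0 counts in all libraries. Of the symbols, 8 are linker histone H1 genes, 22 are H2A, 26 are H2B, 17 are H3 and 16 are H4, and 13 carry the letters PS of a pseudogene.

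Mia-PaCa-2 and PANC-1 are established human lines from pancreatic ductal carcinomas. Each was left untreated (control) or treated for 24 h with 40 nM gemcitabine, a deoxycytidine analogue that stalls DNA synthesis, with 50 µM genistein, a soy isoflavone, or with both drugs. Each of the 8 groups held 2 libraries, 16 in all, made from poly-A selected RNA. The study's methods describe the 2 libraries of a condition as biological replicates; the labels do not say whether they came from separate cultures, and the p-values measure the spread between them.

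Most messenger RNAs end in a poly-A tail. The messages of replication-dependent histone genes do not: they end just after a conserved stem-loop, which is bound by SLBP and cut with the help of the U7 particle, to which LSM11 belongs, and of FLASH, the product of CASP8AP2. The genes are switched on at the start of S phase through NPAT, a target of cyclin E with CDK2, and the messages are lost within a short time when DNA synthesis stops. Some of the genes also make a longer, polyadenylated transcript that reads past the stem-loop, among other times in cells that have left the cycle. Poly-A selection retains only the polyadenylated transcripts, so the values below describe these, and not the main S phase message. In bulk RNA, fewer cells making a transcript and less of it in each cell cannot be told apart.

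The stem-loop was searched for as 6 paired bases, a loop of 4 bases and the complementary 6 bases within 150 bases of the stop codon, in the GENCODE v44 annotation lifted to GRCh37. The search also fixed letters known from histone genes: GG at the start, CC at the end, and CT, T and AG at set places between them. The annotation held 83 of the 89 symbols, with 60 on chromosome 6, 20 on chromosome 1, 2 on chromosome 13 and 1 on chromosome 12. Of the 66 members with an annotated stop codon, 62 had a match, while in all 20047 coding genes searched it was found in 63, or 0.314%. Members were searched after each annotated stop codon, and all coding genes only after the last one, so the numbers are not like measures. The pattern was built on histone genes, so its rarity elsewhere is no separate result. The 4 members without a match to this pattern were HIST1H2AG, HIST1H2AK, HIST1H3E and HIST1H4L. The matches took 5 forms, which differ only in letters that the search left free. The stem-loop is in capitals, with 5 bases on either side in lower case, for GRCh37 and in the direction of transcription.
HIST1H1C (chr6:26055967-26055992, minus strand): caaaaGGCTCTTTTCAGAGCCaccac
HIST1H2BK (chr6:27114140-27114165, minus strand): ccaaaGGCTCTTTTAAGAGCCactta
HIST1H4H (chr6:26285354-26285379, minus strand): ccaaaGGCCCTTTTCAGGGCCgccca
HIST2H4A (chr1:149804591-149804616, plus strand): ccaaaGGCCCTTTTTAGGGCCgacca
HIST2H2AC (chr1:149858936-149858961, plus strand): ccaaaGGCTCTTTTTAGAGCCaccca
The form of HIST1H1C was found in 39 members, that of HIST1H2BK in 9, that of HIST1H4H in 9, that of HIST2H4A in 4 and that of HIST2H2AC in 1. The 9 members with the form of HIST1H4H and the 4 with that of HIST2H4A were all H4 genes. Of the members described most below, HIST1H2AC and HIST2H2BE have the same 16 bases as HIST1H1C, and HIST1H2BC, HIST1H2BD and HIST1H2BJ have those of HIST1H2BK.

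Most of the members were barely seen. Over the 16 libraries, 34 identifiers had 0 counts, 77 had fewer than 50 counts and 29 had 50 or more. The library totals ran from 13101557 to 22254419 counts in Mia-PaCa-2 and from 12943482 to 31991860 in PANC-1, and the members together received 1532 to 2853 counts per library in Mia-PaCa-2 and 1411 to 4581 in PANC-1. HIST1H2BK alone held 30.0% of the 35285 counts on members, HIST1H1C 18.8%, HIST1H2AC 15.9% and HIST1H2BD 11.0%. These 4 genes held 75.7% of the counts, and 12 genes held 93.2%. Per length, the highest mean FPKM values (fragments scaled to transcript length and library size, as the authors deposited them) were 61.0 for HIST1H2BK, 40.8 for the pseudogene HIST1H3PS1, 34.8 for HIST1H1C, 21.3 for HIST1H2BD, 18.0 for HIST1H2BJ and 12.5 for HIST1H2AC. The filter on low counts left 25 identifiers tested in any model, of which 3 were H1, 5 H2A, 10 H2B, 4 H3 and 3 H4, and 81 were tested in none. Each cell line model tested 19 members, and the model over both lines tested 23.

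Members with an annotated transcript that ends over 50 bases past the stem-loop had a higher median count than those without. Of 17 such members, 10 had 50 or more counts, with a median of 218 counts over all libraries, and of the 45 stem-loop members without such a transcript, 14 did, with a median of 24. The 17 members held 41.6% of all counts on members. HIST1H2BK and HIST1H1C, the most counted members, were not among them. Counts are not scaled to length, and an annotated extension adds bases on which reads are counted, so the medians are not like measures. In the deposited isoform table, HIST1H2BD, which encodes an H2B core histone, had 93.0% of its mean FPKM on ENST00000289316, a transcript that ends 12747 bases past the stem-loop. HIST1H2AC, an H2A gene, had 70.5% on ENST00000314088 and 23.6% on ENST00000602637, which end 14432 and 14400 bases past it, and 5.95% on the transcript that ends at it. HIST1H2BC had 97.3% on ENST00000314332, which ends 8599 bases past it. HIST1H2BJ was split, with 49.1% on ENST00000606923, which ends 6242 bases past the stem-loop, and 33.0% on ENST00000339812, which ends 5 bases past it. HIST2H2BE has only ENST00000369155 with values above 0, which ends 1729 bases past it. The long transcripts therefore carried nearly all of the estimated signal of HIST1H2AC, HIST1H2BC and HIST1H2BD. The linker gene HIST1H1C has only an annotated transcript that ends 4 bases past the stem-loop. The signal of HIST1H2BK was assigned to ENST00000396891, which the annotation used here does not hold.

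A polyadenylation hexamer (AATAAA or ATTAAA) lay within 100 genomic bases after the stem-loop in 2 of the 24 stem-loop members with 50 or more counts, within 300 bases in 6 and within 1000 bases in 17. Among the 38 members with fewer counts, the numbers were 3, 9 and 28, so the share was alike in members that were seen and members that were not. The 2 seen members with a hexamer within 100 bases were HIST1H1C and HIST1H2BD, where AATAAA began 13 bases after the stem-loop in both. HIST1H2BK and HIST2H2BE had no hexamer within 1000 bases.

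Each of 3 motifs was more common in the promoters of the members than in all promoters. RefSeq (GRCh38.p14) gave 61 of the members a promoter of 250 bases before and 50 after the start. The octamer ATTTGCAT, read on both strands, was in 34.4% of them and in 1.77% of all 35116 promoters of the same length. It was in 68.8% of H2A and 69.2% of H2B members, in 7.69% of H3 members and in none of the 6 H1 and 13 H4 members. CCAAT was in 83.6% of members against 34.6% of all promoters, and TATAAA in 67.2% against 11.5%. By class, CCAAT was in 100% of H1, H2A, H2B and H3 members, but in 23.1% of the 13 H4 members, below the share of all promoters. TATAAA ran from 50.0% of H1 to 76.9% of H3 members. The 4 promoters below are those of 3 members whose gemcitabine response differed between the lines and of HIST1H2BK, which fell in both. Capitals mark the octamer, CCAAT and TATAAA on either strand, and matches on both strands may overlap.
HIST1H2AC (chr6:26123922-26124221, plus strand): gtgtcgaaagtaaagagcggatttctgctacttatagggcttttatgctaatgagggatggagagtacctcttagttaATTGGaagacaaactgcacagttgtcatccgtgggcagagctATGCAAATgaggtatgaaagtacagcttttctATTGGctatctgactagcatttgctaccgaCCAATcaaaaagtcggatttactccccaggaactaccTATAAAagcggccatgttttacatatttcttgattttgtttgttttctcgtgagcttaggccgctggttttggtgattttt
HIST1H2BD (chr6:26157871-26158170, plus strand): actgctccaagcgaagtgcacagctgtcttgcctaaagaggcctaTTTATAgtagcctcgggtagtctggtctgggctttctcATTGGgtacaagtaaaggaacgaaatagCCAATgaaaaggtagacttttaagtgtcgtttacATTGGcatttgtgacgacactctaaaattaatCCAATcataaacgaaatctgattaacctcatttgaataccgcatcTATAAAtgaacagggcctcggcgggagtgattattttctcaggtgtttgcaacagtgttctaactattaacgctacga
HIST2H2BE (chr1:149886633-149886932, minus strand): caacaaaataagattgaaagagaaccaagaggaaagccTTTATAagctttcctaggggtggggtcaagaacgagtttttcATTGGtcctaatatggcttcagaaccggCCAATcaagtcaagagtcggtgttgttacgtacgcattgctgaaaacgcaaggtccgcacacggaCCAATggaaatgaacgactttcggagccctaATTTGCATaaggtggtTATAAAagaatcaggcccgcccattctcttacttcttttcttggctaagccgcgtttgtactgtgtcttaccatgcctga
HIST1H2BK (chr6:27146809-27147108, minus strand): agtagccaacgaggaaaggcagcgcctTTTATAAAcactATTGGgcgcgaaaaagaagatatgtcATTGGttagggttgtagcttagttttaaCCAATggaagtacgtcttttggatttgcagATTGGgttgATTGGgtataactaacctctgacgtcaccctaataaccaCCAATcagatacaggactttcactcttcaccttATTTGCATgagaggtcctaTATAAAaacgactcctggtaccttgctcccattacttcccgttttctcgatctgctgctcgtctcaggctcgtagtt
HIST1H2AC, HIST2H2BE and HIST1H2BK each hold 1 octamer, while HIST1H2BD holds none but has 4 CCAAT and 2 TATAAA matches. The matches are letters in a window and were not tested as binding sites.

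Reads of 50 bases tell several members from near-identical copies only in part or not at all. Of all windows of 50 bases in its exons, HIST2H2BA had 17.4%, HIST1H2BK 42.8% and HIST1H2BL 88.1% found at 1 place only in the genome. HIST2H4A, HIST2H4B and HIST2H2AA4 had 0. The value of HIST1H2BK covers only its annotated transcript, which ends 5 bases past the stem-loop, and not ENST00000396891. For HIST1H2BC, 30.9% of the exons overlap genes on the opposite strand, HFE among them, and the strand setting of the counting is not given in the sources used here. Reads with several alignments were removed by the authors before counting.

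Levels between libraries are given as CPM (counts scaled to a common library size, after TMM normalization), differences as log2 fold changes with their standard error (SE) from limma-voom, and p-values are adjusted by Benjamini-Hochberg over all genes tested. A member was called where the adjusted p was 0.05 or less and the log2 fold change was 0.4 or more in size. The replicate libraries of PANC-1 control had the highest chi-square per degree of freedom against counting error, 32, against 2.7 to 19.7 in the other groups, a measure that grows with depth. Of the ductal markers, KRT8 ran from 322 to 1202 CPM over the 16 libraries. EPCAM was at 0 in all 8 Mia-PaCa-2 libraries and at 7.04 to 13.9 CPM in PANC-1, and the acinar markers summed to at most 0.071 CPM. The fibroblast markers summed to 0.614 to 3.93 CPM in Mia-PaCa-2 and 128 to 381 CPM in PANC-1, nearly all of it COL1A1, with DCN at 0 in all libraries.

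The first question was what gemcitabine alone did to the polyadenylated histone transcripts. Their summed level was lower with gemcitabine than in control in both lines; the sums were not tested. Summed over all members, the level in PANC-1 was 151.4 and 143.3 CPM in the control libraries and 76.18 and 77.1 CPM with gemcitabine, or 52.0% ± 0.443 (SD, n = 2) of control. In Mia-PaCa-2 it was 152.0 and 150.7 CPM in control and 114.5 and 122.9 CPM with gemcitabine, or 78.4% ± 3.91 (SD, n = 2). The treated libraries lay below the controls in both lines. By class, gemcitabine left 56.7% ± 8.01 of the H1 sum, 40.8% ± 2.5 of H2A, 53.0% ± 0.26 of H2B, 58.6% ± 18.0 of H3 and 67.6% ± 16.9 of H4 in PANC-1. In Mia-PaCa-2 it left 92.2% ± 1.19 of H1, 62.9% ± 4.95 of H2A, 79.3% ± 5.89 of H2B, 90.5% ± 4.99 of H3 and 88.0% ± 6.3 of H4 (SD, n = 2 throughout). On these CPM sums H2A had the lowest remaining share in both lines. On the authors' FPKM scale the sum of all members was 66.0% of control in PANC-1 and 88.9% in Mia-PaCa-2, and H2A was at 57.9% and 92.2% and H2B at 61.3% and 78.4%, so that H2A was not the lowest class in Mia-PaCa-2.

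**Figure D1:**
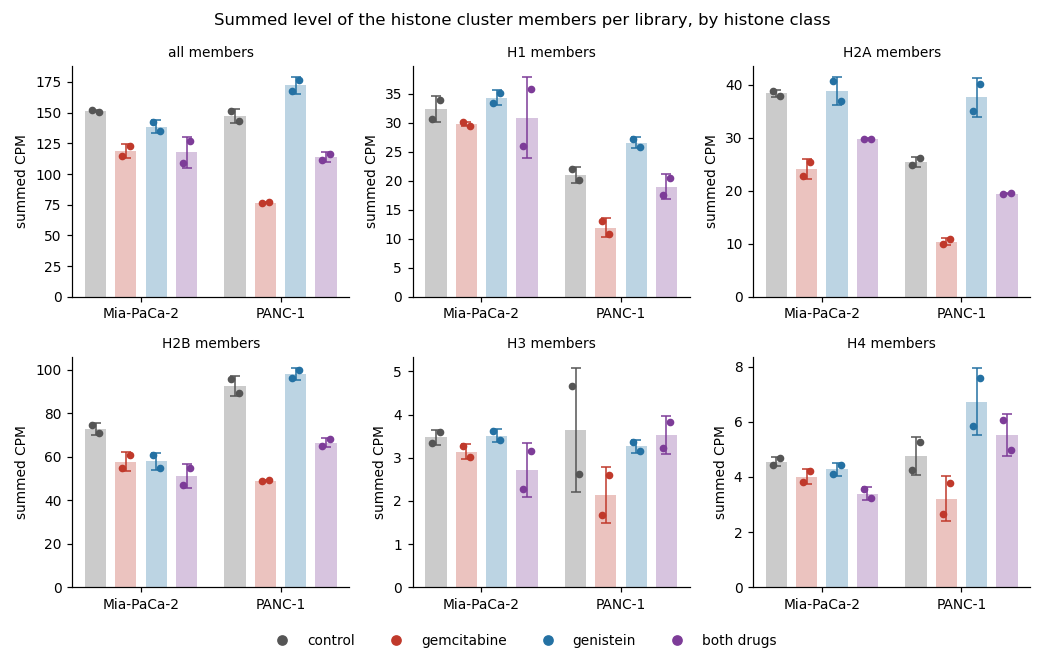
Summed CPM of all members and of each histone class (vertical axes, each starting at 0) in the 4 groups of both lines, with a point per library, bars at the group mean and error bars of 1 SD (n = 2). The 2 PANC-1 gemcitabine libraries, at 76.18 and 77.1 CPM, are the lowest for all members.

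In PANC-1, 6 of the 19 members tested fell with gemcitabine and none rose, where 8.14% of all genes tested were called in either direction and 3.29% were lower. HIST1H1C, a somatic linker histone gene, was at 21.7 and 19.2 CPM in control and at 12.7 and 10.6 with gemcitabine. Both treated libraries lay below both controls, and HIST1H1C fell by 0.76 on the log2 scale (SE 0.15, adjusted p = 0.0237). HIST1H2AC was at 19.2 and 19.6 CPM in control and 7.02 and 7.66 with gemcitabine, a log2 fold change of -1.36 (SE 0.15, adjusted p = 0.00402). HIST1H2BD went from 16.3 and 13.7 CPM to 5.45 and 5.35, a log2 fold change of -1.41 (SE 0.16, adjusted p = 0.00415). HIST1H2AC and HIST1H2BD had the smallest adjusted p-values of the members. The groups overlapped in none of these genes, which adds no support to calls made on the same libraries.

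Of the other H2B genes, HIST1H2BK went from 59.3 and 58.1 CPM to 31.4 and 32.4 in PANC-1 (log2 fold change -0.83, SE 0.11, adjusted p = 0.00764). HIST2H2BE went from 3.56 and 3.19 CPM to 1.73 and 1.75 (log2 fold change -0.89, SE 0.21, adjusted p = 0.0386). HIST1H2BC went from 3.11 and 2.81 CPM to 0.648 and 1.42 (log2 fold change -1.52, SE 0.37, adjusted p = 0.0442). In each of the 3, the groups did not overlap, which adds no support to calls made on the same libraries. HIST1H2BJ, at 9.28 and 6.94 CPM in control and 5.51 and 4.97 with gemcitabine, did not pass (log2 fold change -0.56, adjusted p = 0.0968). Over the 19 members, 18 had a negative fold change and the median was -0.74, beside 0.03 over all genes tested. The calls needed both treated libraries: without gemcitabine replicate 1 or without gemcitabine replicate 2, no member was called, and only 66 and 64 genes were called in all. Without control replicate 1, 3 members were called.

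In Mia-PaCa-2, 4 of 19 members fell with gemcitabine and none rose, where 32.3% of all genes tested were called in either direction and 15.6% were lower. HIST1H2AC was at 31.0 and 29.6 CPM in control and 16.6 and 17.9 with gemcitabine, with no overlap (log2 fold change -0.87, SE 0.12, adjusted p = 0.000144). HIST1H2BK was at 46.2 and 42.6 CPM in control and 29.7 and 33.1 with gemcitabine (log2 fold change -0.56, SE 0.12, adjusted p = 0.00353). Without control replicate 1, the adjusted p of HIST1H2BK was 0.0554, and over the 10 alternatives that kept every library it was at most 0.0352. The other 2 calls rest on few reads. HIST1H2BL had 12 and 9 counts in control and 3 and 5 with gemcitabine (log2 fold change -1.52, SE 0.53, adjusted p = 0.0374) and lost its call when any of the 4 libraries was left out. HIST1H1E, a linker histone gene, had 9 and 15 counts in control and 2 and 1 with gemcitabine, a ratio of 0.114 with a 95% interval for counting error of 0.0219 to 0.374 (adjusted p = 0.0178). Its call was lost without either gemcitabine library or without control replicate 2. The members had a median log2 fold change of -0.45, beside -0.01 over all genes, and 15 of 19 were negative.

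HIST1H1C, HIST1H2BD and HIST2H2BE showed no fall in Mia-PaCa-2. HIST1H1C was at 29.5 and 32.0 CPM in control and 29.7 and 29.2 with gemcitabine (log2 fold change -0.11, adjusted p = 0.561). HIST1H2BD was at 14.1 and 14.3 CPM in control and 13.2 and 15.3 with gemcitabine (log2 fold change -0.05, adjusted p = 0.803). HIST2H2BE was at 5.90 and 7.28 CPM in control and 7.01 and 7.30 with gemcitabine. In all 3 the groups overlapped.

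**Figure D2:**
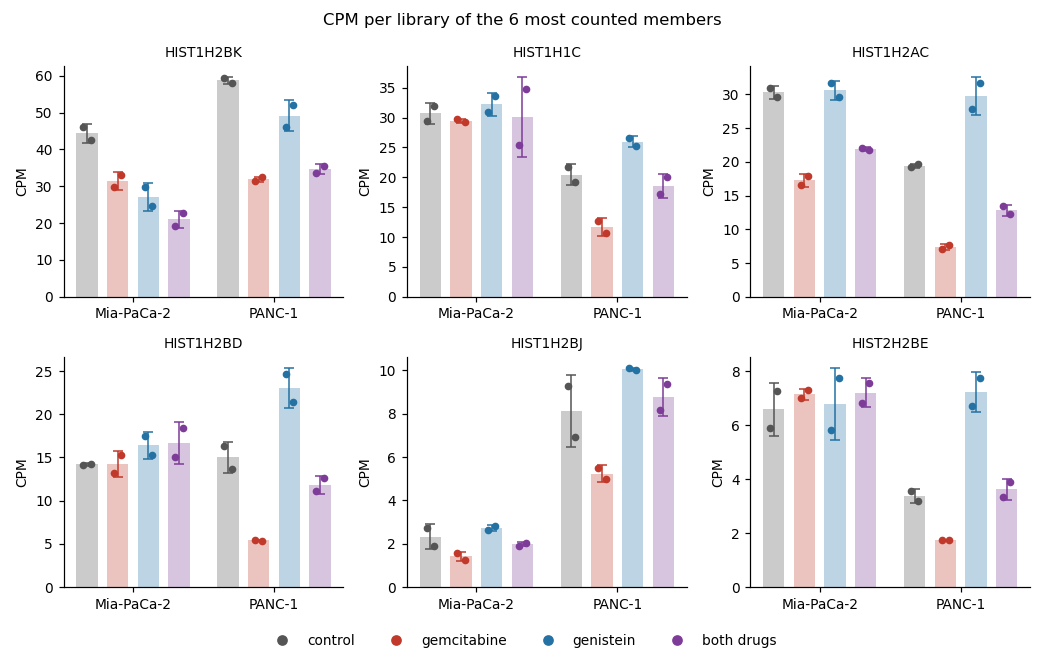
CPM (vertical axes, each starting at 0) of the 6 members with the most counts, with a point per library, bars at the group mean and error bars of 1 SD (n = 2). HIST1H2BD is at 5.45 and 5.35 CPM in the PANC-1 gemcitabine libraries and at 13.2 or more in every library of Mia-PaCa-2.

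The difference between the lines was tested as gemcitabine response in PANC-1 minus that in Mia-PaCa-2, in a model of all 16 libraries. It was called for 5 of 23 members, all with a lower response in PANC-1, where 15% of all genes were called and 8.91% were lower. The difference for HIST1H2BD was -1.45 on the log2 scale (SE 0.23, adjusted p = 0.00187), and it was called in all 10 alternative analyses and with each of the 8 libraries left out. That of HIST2H2BE was -1.07 (SE 0.29, adjusted p = 0.0272), that of HIST1H1C -0.75 (SE 0.22, adjusted p = 0.0372) and that of HIST1H2AC -0.58 (SE 0.17, adjusted p = 0.0358). HIST3H2A, an H2A gene on chromosome 1, was at 25 and 25 counts in Mia-PaCa-2 control and 27 and 29 with gemcitabine, but at 12 and 11 in PANC-1 control and 2 and 1 with gemcitabine. The ratio in PANC-1 was 0.171, with a 95% interval for counting error of 0.0328 to 0.565, and the difference between lines was -2.26 (SE 0.68, adjusted p = 0.0402). Apart from HIST1H2BD, these calls depended on single libraries. HIST1H2AC, HIST1H1C and HIST3H2A were each called in 1 of the 8 analyses that left out a library, and HIST2H2BE in 2. Over those 8 analyses, 1 to 5 members were called.

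Genistein alone had another pattern. In Mia-PaCa-2 the sum over members was 142.4 and 134.7 CPM, or 91.5% ± 3.57 (SD, n = 2) of control, and in PANC-1 it was 167.4 and 176.8 CPM, or 117% ± 4.49. In Mia-PaCa-2, 1 of 19 members was called, where 9.28% of all genes were and 4.92% were lower. This was HIST1H2BK, at 29.8 and 24.5 CPM with genistein against 46.2 and 42.6 in control (log2 fold change -0.75, SE 0.12, adjusted p = 0.00398; without control replicate 1, adjusted p = 0.0713, and at most 0.0314 over the 10 alternatives that kept every library). The median member had a log2 fold change of -0.04, beside 0 over all genes. HIST1H2AC, at 31.6 and 29.6 CPM with genistein, overlapped its control.

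In PANC-1 no member was called with genistein by limma-voom, and only 0.0591% of all genes were, or 10 genes. DESeq2 called 3 members, with 4.59% of all genes, and edgeR none, with 0.071%. The largest values, named after they were seen, were those of HIST2H2BE, at 3.56 and 3.19 CPM in control and 6.72 and 7.75 with genistein (log2 fold change 1.14, SE 0.17, adjusted p = 0.0825). HIST1H2BD was at 24.7 and 21.4 CPM with genistein (log2 fold change 0.67, adjusted p = 0.119) and HIST1H2AC at 27.8 and 31.7 CPM (log2 fold change 0.65, adjusted p = 0.118). In all 3 the treated libraries lay above both controls, and 10 of the 19 members were higher with no overlap, as were 24.6% of all genes tested. The members had a median log2 fold change of 0.39, beside 0.05 over all genes. After a correction for GC content, 1362 genes, or 8.05%, were called in this comparison, and 4 members among them, all higher: HIST2H2BE at a log2 fold change of 0.99, HIST1H2AC at 0.51, HIST1H2BD at 0.50 and HIST1H1C at 0.45. The genistein response did not pass as different between the lines for any of 23 members by limma-voom, where 0.0336% of all genes were called. DESeq2 called 1, HIST1H2AC, with 1.01% of all genes, and the GC correction called 1, HIST2H2BE, with 1.98%.

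**Figure D3:**
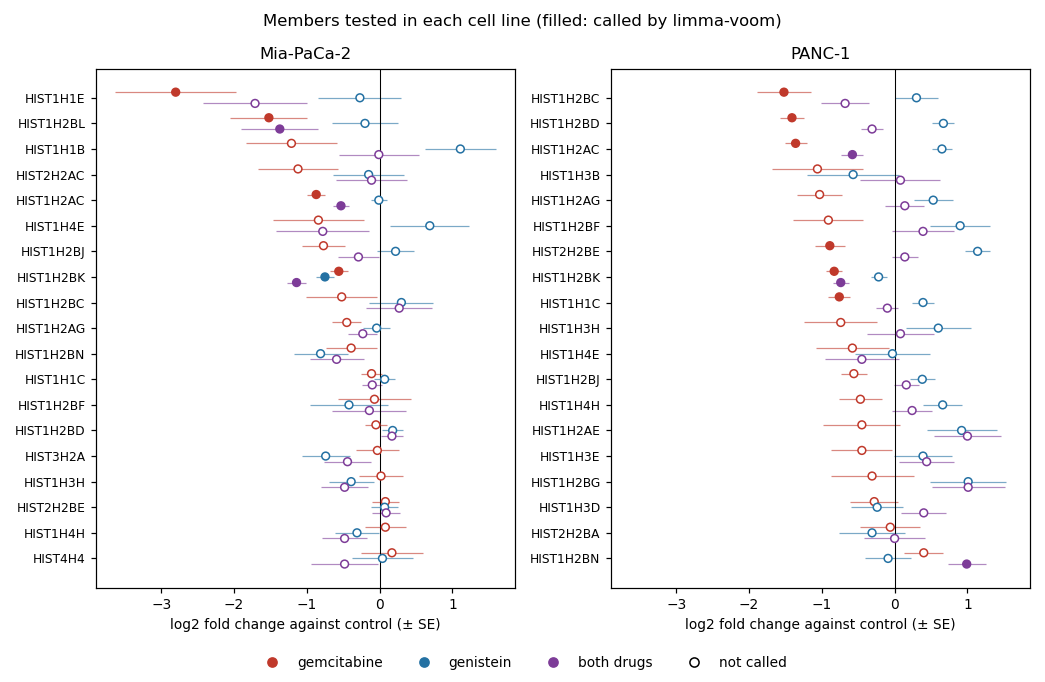
Log2 fold change against control (horizontal axes) of the 19 members tested in each line, with lines of 1 SE; filled points were called by limma-voom and open points were not. In PANC-1 the gemcitabine values lie below 0 for 18 of 19 members, while the genistein values lie above 0 for 13.

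With both drugs the sum over members was 108.8 and 126.7 CPM in Mia-PaCa-2, or 77.8% ± 8.4 (SD, n = 2) of control, and 111.1 and 116.7 CPM in PANC-1, or 77.3% ± 2.66. The PANC-1 value lies between those of the single drugs, but on the authors' FPKM scale it was 99.5% of control. In Mia-PaCa-2, 3 of 19 members fell against control, where 44.6% of all genes were called and 22.4% were lower. HIST1H2BK was at 19.3 and 22.7 CPM, lower than in any other library of the line (log2 fold change -1.14, SE 0.13, adjusted p = 1.67e-05). HIST1H2AC was at 22.1 and 21.7 CPM (log2 fold change -0.53, SE 0.11, adjusted p = 0.00191). HIST1H2BL, with 2 and 7 counts against 12 and 9, was called at an adjusted p of 0.0458 (log2 fold change -1.37, SE 0.53), which was lost without either control library or without both drugs replicate 1. Against gemcitabine alone, 6.39% of all genes, 2.14% as lower, and 1 of 19 members were called. That member was HIST1H2BK, which fell by a further 0.59 on the log2 scale (SE 0.13, adjusted p = 0.0207) and lost the call without either gemcitabine library, when 0 members were called.

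In PANC-1, 3 of 19 members were called with both drugs against control, 2 lower and 1 higher, where 18.8% of all genes were called, 7.53% as lower and 11.3% as higher. HIST1H2BK was at 33.6 and 35.5 CPM against 59.3 and 58.1 in control (log2 fold change -0.74, SE 0.11, adjusted p = 0.00464), a call that held in all 11 alternatives and without each library. HIST1H2AC was at 13.4 and 12.2 CPM against 19.2 and 19.6 (log2 fold change -0.58, SE 0.15, adjusted p = 0.0299), and HIST1H2BN rose, from 1.25 and 1.28 CPM to 2.91 and 2.18 (log2 fold change 0.99, SE 0.26, adjusted p = 0.0323). HIST1H2BN is an H2B gene of the HIST1 cluster. The groups did not overlap in any of the 3, which adds no support to calls made on the same libraries. HIST1H2AC and HIST1H2BN were each called in only 1 of the 4 analyses that left out a library. With a block for replicate number only HIST1H2BK was called. On log2(FPKM + 1) HIST1H2BN had a difference of 0.16 (adjusted p = 0.61), and its adjusted p over the 11 alternatives ran from 0.00479 to 0.61.

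Set against gemcitabine alone, adding genistein in PANC-1 gave higher values for all 19 members tested, with a median log2 fold change of 0.82, beside -0.02 over all genes. In 17 of the 19 the libraries with both drugs were higher with no overlap, as they were in 24.8% of all genes tested. None was called by limma-voom, which called 0.0177% of all genes, or 3 genes. HIST1H2BD was at 11.1 and 12.6 CPM with both drugs against 5.45 and 5.35 with gemcitabine (log2 fold change 1.11, SE 0.17, adjusted p = 0.111). HIST2H2BE, named after its values were seen, was at 3.35 and 3.89 CPM against 1.73 and 1.75 (log2 fold change 1.03, adjusted p = 0.124), and HIST1H2AC at 13.4 and 12.2 against 7.02 and 7.66 (log2 fold change 0.78, adjusted p = 0.124). HIST1H2BK, at 33.6 and 35.5 CPM against 31.4 and 32.4, had a log2 fold change of 0.09 (adjusted p = 0.771). Other analyses made calls, all higher. DESeq2 called 2 members and 1.27% of all genes, the GC correction 5 members and 7.58%, and the model of all 16 libraries 6 members and 3.03%. A block with the replicate numbers of the both-drugs libraries crossed called 7 of 14 members and 9.47% of all genes. The crossing was chosen after seeing that these libraries deviated in the opposite direction to the others. A gain in calls was thus built in, and these calls are no support. The comparisons of a line share its control or its gemcitabine libraries and are not independent of each other.

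The untreated lines differed in which histone genes they expressed. PANC-1 was higher than Mia-PaCa-2 for 5 members and lower for 8 of 23, where 59.3% of all genes tested were called, 32.2% as higher and 27.1% as lower, so a difference was no more common among members than among all genes. HIST1H2BJ was at 9.28 and 6.94 CPM in PANC-1 and 2.74 and 1.91 in Mia-PaCa-2 (log2 difference 1.75, SE 0.23, adjusted p = 1.52e-05), and HIST1H2BC at 3.11 and 2.81 against 1.34 and 0.843 (log2 difference 1.41, SE 0.42, adjusted p = 0.00957). HIST2H2BA had 18 and 35 counts in PANC-1 and 0 in all 8 Mia-PaCa-2 libraries, which makes it at least 5.02-fold higher in PANC-1 against a floor of 3 counts in each library. The annotation lists HIST2H2BA as the transcribed pseudogene H2BP1 and holds another record of that name over all of its exons. HIST1H2AE (ratio 4.74, 95% counting interval 1.44 to 24.5) and HIST1H2BG (ratio 5.49, 1.7 to 28.2) were higher from 3 counts each in the Mia-PaCa-2 controls. HIST1H2AE lost its call without Mia-PaCa-2 control replicate 1 (adjusted p = 0.494) or either PANC-1 control, HIST1H2BG without either Mia-PaCa-2 control (0.212 and 0.0599) or PANC-1 control replicate 1 (0.0792), and HIST1H2BC without Mia-PaCa-2 control replicate 2 (0.0831).

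Lower in PANC-1 were 3 H2A genes, HIST2H2AC, HIST3H2A and HIST1H2AC. HIST2H2AC had 2 and 3 counts in PANC-1 and 16 and 7 in Mia-PaCa-2 (ratio 0.124, 95% counting interval 0.0367 to 0.332). HIST3H2A was at 0.602 and 0.344 CPM against 1.52 and 1.91 (log2 difference -1.92, SE 0.39, adjusted p = 0.00079), and HIST1H2AC at 19.2 and 19.6 against 31.0 and 29.6 (log2 difference -0.64, adjusted p = 0.000154). The H2B genes HIST1H2BL (log2 difference -2.10, SE 0.49, adjusted p = 0.00213) and HIST2H2BE (-0.96, adjusted p = 0.000507) were also lower, as were HIST1H3H (-1.55, SE 0.36, adjusted p = 0.00195), HIST4H4 (-1.35, SE 0.43, adjusted p = 0.014) and HIST1H1C (-0.60, adjusted p = 0.00304). HIST4H4 lost its call without Mia-PaCa-2 control replicate 2 (adjusted p = 0.0516) or PANC-1 control replicate 1 (0.0664), and HIST1H3H without PANC-1 control replicate 2 (0.0543). HIST1H2BD had nearly the same level in both lines, at 16.3 and 13.7 CPM in PANC-1 and 14.1 and 14.3 in Mia-PaCa-2 (log2 difference 0.06, adjusted p = 0.739), although its gemcitabine response differed.

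None of SLBP, NPAT, CASP8AP2 and LSM11 was called lower with gemcitabine in either line. In PANC-1, SLBP, the stem-loop binding protein, was at 97.1 and 103.1 CPM in control and 128.0 and 135.2 with gemcitabine, and rose by a log2 fold change of 0.44 (SE 0.10, adjusted p = 0.0434). This call held in 6 of 10 alternatives (adjusted p 0.00456 to 0.0988) and in 1 of 4 analyses that left out a library, that without control replicate 2. CASP8AP2, at 8.52 and 19.5 CPM in control and 28.7 and 31.4 with gemcitabine, did not pass (log2 fold change 1.23, adjusted p = 0.0894), nor did NPAT (0.66, adjusted p = 0.282). In Mia-PaCa-2 with gemcitabine CASP8AP2 (-0.59, adjusted p = 0.061) and NPAT (-0.26) were negative and SLBP (0.14) and LSM11 (0.13) positive, none of them called. The gemcitabine response of CASP8AP2, PANC-1 minus Mia-PaCa-2, was called at 1.7 (adjusted p = 0.0367), where 15% of all genes were called. This call held in 7 of 10 alternatives and in 1 of 8 analyses that left out a library. Of 28 genes for histone mRNA processing, expression and decay, 5 rose and none fell in PANC-1, with a median of 0.27, among them the cyclin E genes CCNE2 (2.09, adjusted p = 0.0173) and CCNE1 (1.04, adjusted p = 0.00283). In Mia-PaCa-2, 3 of the 28 rose and 3 fell with gemcitabine, CCNE2 (adjusted p = 0.0052) and CCNE1 (0.81, adjusted p = 7.15e-05) among the former. There 32.3% of all genes tested were called in either direction and 15.6% were lower, so these counts were not above that share. In PANC-1 with gemcitabine 8.14% of all genes were called. CASP8AP2 fell in Mia-PaCa-2 with genistein (log2 fold change -1.18, SE 0.25, adjusted p = 0.0129) and with both drugs (-1.44, SE 0.26, adjusted p = 0.000601), where NPAT fell too (-0.65, SE 0.17, adjusted p = 0.00701). The genistein call of CASP8AP2 held in 8 of 10 alternatives (adjusted p 0.000767 to 0.138) and in 1 of 4 analyses that left out a library, that without genistein replicate 2. The call of NPAT held in 6 of 10 alternatives and 2 of 4 such analyses (lost without control replicate 1 or both drugs replicate 2), and with the GC correction its log2 fold change was -0.09 (adjusted p 0.00702 to 0.537 over the alternatives). LSM11 was lower in untreated PANC-1 than in untreated Mia-PaCa-2 (log2 difference -1.15, SE 0.16, adjusted p = 3.43e-05).

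Genes of DNA replication and of mitosis moved with the same treatments, and their part in the values of the histone genes was not tested. Of 28 S phase genes, 19 rose with gemcitabine in PANC-1 and none fell, with a median log2 fold change of 0.73 beside -0.74 for the histone members. They included DTL (1.67, adjusted p = 0.000871), an adaptor of a ubiquitin ligase that acts in S phase, the ribonucleotide reductase subunit RRM2 (0.88, adjusted p = 0.00157) and the helicase subunit MCM4 (0.88, adjusted p = 0.0019). In Mia-PaCa-2, 9 of the 28 rose and 2 fell, with a median of 0.20. Of all genes tested, 32.3% were called in either direction with gemcitabine in Mia-PaCa-2 and 8.14% in PANC-1. Apart from SLBP, NPAT, CASP8AP2 and LSM11, the listed genes that are not members were not followed singly with a library left out. In PANC-1 few genes of any kind were called with either gemcitabine library left out, as given above. Of 22 genes of G2 and mitosis, 18 fell with gemcitabine in Mia-PaCa-2 and 5 in PANC-1, with medians of -0.68 and -0.09 (0.02 in PANC-1 when scaled by library size alone), and none rose. Among them PLK1, a mitotic kinase, fell by 0.85 on the log2 scale in Mia-PaCa-2 (adjusted p = 7.94e-05) and by 1.22 in PANC-1 (adjusted p = 0.00548). Replication genes and polyadenylated histone transcripts thus had medians of opposite sign with gemcitabine in both lines.

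**Figure D4:**
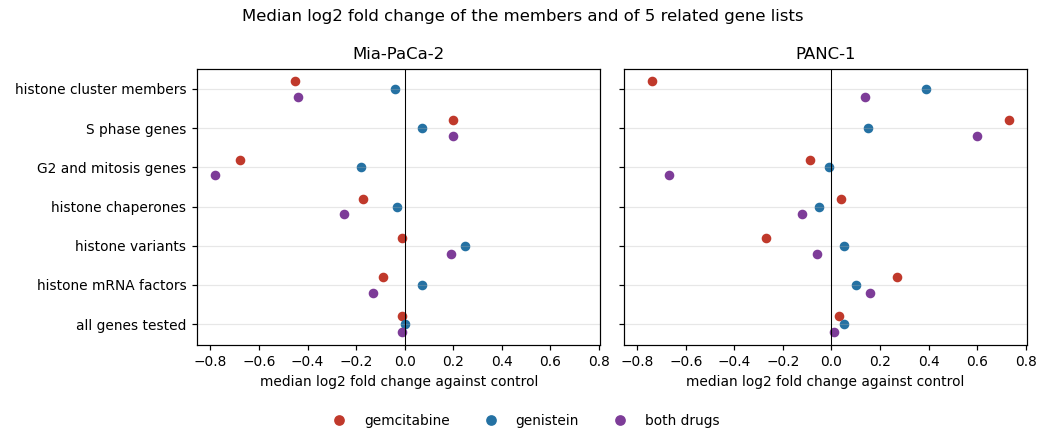
Median log2 fold change against control (horizontal axes) of the histone members, of 5 lists of related genes and of all genes tested, for each treatment in both lines. With gemcitabine in PANC-1 the histone members lie at -0.74 and the S phase genes at 0.73.

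Histone variant genes outside the clusters are mostly expressed independently of replication and carry poly-A tails. Of 12 replication-independent variants, none rose and 2 fell with gemcitabine in PANC-1, CENPA, the centromeric H3 (-0.49), and H1F0, the replacement linker histone (-0.87, adjusted p = 0.00299), and in Mia-PaCa-2 CENPA (-0.63) and H1F0 were the 2 that fell, while 2 rose. H1F0 was at 222.2 and 193.8 CPM in PANC-1 control and 111.7 and 107.2 with gemcitabine, and in Mia-PaCa-2 at 116.4 and 121.1 in control and 76.0 and 75.3 with gemcitabine (log2 fold change -0.70, adjusted p = 6.85e-05). Of 21 histone chaperones, 3 rose with gemcitabine in PANC-1 and none fell, ASF1B (0.99, adjusted p = 0.00402), CHAF1B (0.81) and CHAF1A (0.54), all of which load new histones at the replication fork. In Mia-PaCa-2, 3 rose, ASF1B again among them (1.01, adjusted p = 5.82e-06), and 3 fell. With gemcitabine 32.3% of all genes were called in Mia-PaCa-2 and 8.14% in PANC-1. The Mia-PaCa-2 counts of variants and chaperones were thus near the share of all genes. ATRX, which loads H3.3, fell in Mia-PaCa-2 with gemcitabine (-1.22, SE 0.20, adjusted p = 0.000492), genistein (-1.65, SE 0.21, adjusted p = 0.001) and both drugs (-2.76, SE 0.25, adjusted p = 2.41e-06).

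Some members have an FPKM value but almost no counts. Both H4 genes of the HIST2 cluster, HIST2H4A and HIST2H4B, had 1 count over all 16 libraries each, and no window of 50 bases that is theirs alone. The FPKM of HIST2H4A was 4.66 and 4.67 in PANC-1 control, 5.71 and 5.45 with gemcitabine, 6.33 and 5.62 with genistein, and 15.3 and 19.6 with both drugs. That of HIST2H4B in the same order was 4.12 and 4.33, 5.28 and 5.51, 5.33 and 5.68, and 15.5 and 16.9. Both stood far above the other groups in the co-treated PANC-1 libraries, while in Mia-PaCa-2 HIST2H4A reached 7.46 and 8.69 with both drugs from 4.88 and 4.86 in control. The pair was chosen after the values were seen, among 90 comparisons of a treated group with its control in the 15 untested members with a mean FPKM above 1, because both treated libraries lay above both controls, the control mean was above 1 and the treated mean was at least 2 times as high. No test was made. HIST1H3PS1 had the second highest FPKM, 24.8 to 58.7 over all libraries, from 36 counts in all, and 88.6% of its 50-base windows occur at 1 place only. The source of this gap between FPKM and counts was not tested.

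**Figure D5:**
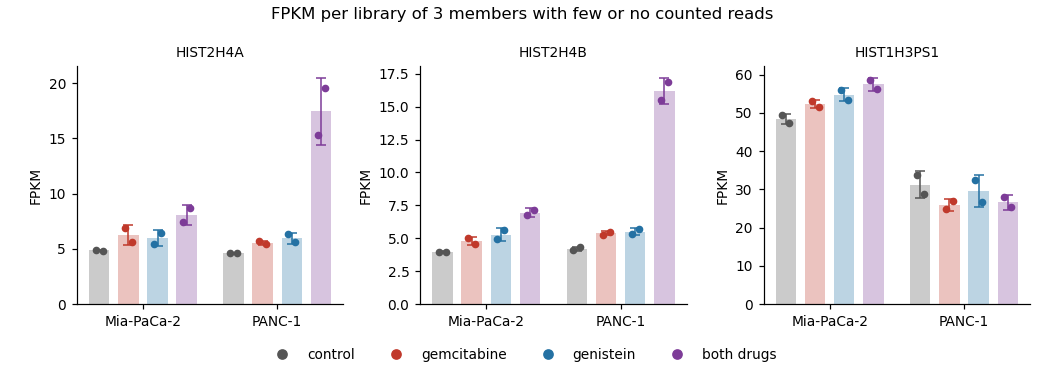
FPKM (vertical axes, each starting at 0) of 3 members with few or no counted reads, with a point per library, bars at the group mean and error bars of 1 SD (n = 2). HIST2H4A and HIST2H4B lie at 15.3 or more in the PANC-1 libraries with both drugs and at 8.69 or less in all other libraries.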

How the data were processed

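Poly-A selected RNA (TruSeq Stranded mRNA, single reads of 50 bases) was sequenced from 16 libraries. Per the submitters' processing notes and the study's methods, the authors aligned reads to GRCh37 with TopHat2 2.0.4, handled them with SAMtools and Picard 1.29, removed reads with several alignments, counted genes with HTSeq 0.6.1 and estimated FPKM with Cufflinks 2.1.1. The strand setting of the counting and the annotation release are not given in the sources used here. The authors deposited raw counts per gene and FPKM values per gene and per isoform, normalized for length and library size. Per-sample columns left unused numbered 0.

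Counts were tested over all genes with limma-voom on TMM-scaled library sizes after edgeR's filterByExpr, in a model of 8 libraries per line, and in a model of all 16 for differences between lines (R 4.3.3, limma 3.58.1, edgeR 4.0.16, DESeq2 1.42.0). Calls needed a Benjamini-Hochberg adjusted p of 0.05 or less and a log2 fold change of 0.4 or more in size. Summed levels were described by mean and SD without a test. Intervals of low counts are exact at 95% and cover counting error only. The floor of 3 counts per library is a set value and carries no confidence level. Other settings tried were the quasi-likelihood test of edgeR, DESeq2, its size factors, library size alone, no filter, a filter at FPKM 1, log2(FPKM + 1) with limma-trend, a GC correction (loess span 0.3), a block for replicate number, 1 model for all libraries, and leaving out each library. The code was tested on simulated data.

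The members and gene lists were chosen with earlier results of these data known. Named are the 12 members with the highest mean FPKM, up to 5 called members per comparison and direction with the largest change, SLBP, NPAT, CASP8AP2 and LSM11, and called genes of the other lists. Other genes (HIST2H2BE outside the PANC-1 gemcitabine comparison and the promoters, and genes named only with uncalled values) were named after their values were seen. Gene positions and stem-loops were read from GENCODE v44 lifted to GRCh37, which is not the authors' annotation and matched 53 members by identifier and 30 by symbol. Promoters are from RefSeq, GRCh38.p14.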

Additional observations from a re-analysis of the deposited data

Results flagged for a closer look

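The response to gemcitabine differed between the lines in the test of the difference itself for 5 members. On the log2 scale, as PANC-1 minus Mia-PaCa-2, the differences were -1.45 for HIST1H2BD, -1.07 for HIST2H2BE, -0.75 for HIST1H1C, -0.58 for HIST1H2AC and -2.26 for HIST3H2A. In PANC-1 the treated libraries lay below both controls for all 5 genes, which adds no support, since the test that picked them used these same libraries. The difference of HIST1H2BD was called with every library left out in turn, while each of the other 4 was called in at most 2 of those 8 analyses.

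HIST2H4A and HIST2H4B stood out in FPKM, a measure outside the tests on counts. In PANC-1 with both drugs their mean FPKM was 17.5 and 16.2, against 4.67 and 4.22 in control, on 1 count each over all libraries. No 50-base window of either gene occurs at only 1 place in the genome, and reads with several alignments were removed before counting.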

How the results depend on the processing

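No called value of a member or of SLBP, NPAT, CASP8AP2 and LSM11 changed sign. Other listed genes were not followed singly under the alternatives. Of 1975 single-gene results under the alternatives, 85 had the other sign, in 34 pairs of gene and comparison that were not called (log2 fold change -0.52 to 0.48), and 0 of the 85 passed the threshold. With the GC correction the median member went from 0.06 to -0.02 in Mia-PaCa-2 with both drugs against gemcitabine and from 0.01 to -0.08 between the untreated lines, and by library size alone the median of the G2 and mitosis genes in PANC-1 with gemcitabine went from -0.09 to 0.02. Of the values that answer a comparison, 97 stayed within 1.5 times or 1 SD under the other alternatives and 43 did not, and with a library left out 34 did and 18 did not. For single genes, 1231 results kept their side of the threshold, 54 passed it and 66 lost it, and with a library left out these were 526, 9 and 89.

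The number of members called moved as follows. In Mia-PaCa-2 with gemcitabine (4 members) it was 7 without the low-count filter, 8 with the GC correction, 7 with the GC correction and replicate block, 2 on log2(FPKM + 1), 2 with the filter at FPKM 1, and 2 to 3 with a library left out. With genistein (1) it was 2 without the filter, 2 with the GC correction and 0 to 1 with a library left out. With both drugs (3) it was 7 without the filter and 2 to 3 with a library left out, and against gemcitabine (1) it was 3 without the filter, 0 on log2(FPKM + 1) and 0 to 1 with a library left out. In PANC-1 with gemcitabine (6) it was 3 with the replicate block, 3 on log2(FPKM + 1), 10 with all 16 libraries in 1 model and 0 to 5 with a library left out. With genistein (0) it was 3 by DESeq2, 4 with the GC correction, 2 with the GC correction and replicate block, and 3 with all 16 libraries. With both drugs (3) it was 1 with the replicate block, 1 on log2(FPKM + 1) and 1 to 2 with a library left out. Against gemcitabine (0) it was 2 by DESeq2, 5 with the GC correction, 4 with the GC correction and replicate block, 6 with all 16 libraries and 0 with any library left out. Between the untreated lines (13) it was 22 without the filter and 12 to 15 with a library left out. The gemcitabine response difference (5) had 3 members without the filter, 2 with the replicate block, 1 on log2(FPKM + 1) and 1 to 5 with a library left out. The genistein response difference (0) had 1 by DESeq2, 1 with the GC correction and 1 with the GC correction and replicate block. The number of all genes called moved with the setting too, so a count of members under a setting is by itself no result about the members. In PANC-1 with gemcitabine 1377 genes were called in the main fit and 3383 with the GC correction, and in Mia-PaCa-2 5181 and 4931. The cause of these shifts was not tested.

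The summed level as a percent of control moved from 78.4 to 88.9 on FPKM and 85.8 on FPKM without pseudogenes in Mia-PaCa-2 with gemcitabine, and from 77.8 to 89.9 on FPKM with both drugs. The sums without pseudogenes leave out only symbols with the letters PS, so HIST2H2BA, which the annotation lists as a pseudogene, stays in them. In PANC-1 it moved from 52.0 to 58.1 by library size alone, 66.0 on FPKM and 63.6 without pseudogenes with gemcitabine, from 117 to 104.8 and 106.003 on the same FPKM sums with genistein, and from 77.3 to 87.9 by library size alone, 99.5 on FPKM and 101.1 without pseudogenes with both drugs. The sum without pseudogenes and the crossed pairing below were chosen after seeing the data.

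Libraries that share a replicate number did not deviate together in all groups, so pairing by number was not established. The correlations were -0.299 to 0.155 in Mia-PaCa-2, 0.106 to 0.331 among PANC-1 control, gemcitabine and genistein, and -0.569 to -0.0951 between these and PANC-1 both drugs. With the numbers of the both-drugs libraries crossed, a block called 5 members and 33.2% of all genes in PANC-1 with both drugs against control, and 7 members and 9.47% against gemcitabine. The crossing was picked because of these negative correlations, so a gain in calls was built in and is no support. Scaling by library size alone moved the share of called genes that were higher from 59.6% to 78.1% in PANC-1 with gemcitabine, where the median of all genes went from 0.03 to 0.14, from 51.7% to 66.9% in Mia-PaCa-2 with gemcitabine, and from 60% to 79.3% in PANC-1 with both drugs, where the median went from 0.01 to 0.17.

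Depth limits what can be said of most members: 77 identifiers had fewer than 50 counts over 16 libraries, and 81 entered no test. With 2 libraries per group, calls in PANC-1 often rest on single libraries.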
